A study of Arabidopsis thaliana with 12 samples.

Results

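The genes described here are 5 Arabidopsis thaliana genes of sugar phosphate and central carbon metabolism, chosen by locus name out of 689 loci that the array annotation ties to a probe naming a single gene. They are AT1G06730, a carbohydrate kinase of the pfkB family, PRK (AT1G32060), phosphoribulokinase, AT5G17630, the plastid xylulose 5-phosphate translocator, AT5G14590, an isocitrate dehydrogenase, and AT4G17260, a lactate dehydrogenase. Each was on 1 probe, and all 5 probes were above 0 in all 12 samples. The samples were total RNA of wild-type plants of the ecotype Wassilevskija. For 6 of them the title names a water treatment of unstated length, and for the other 6 the plants spent 30 min in MS, a plant salt medium, with 60 mM sucrose. No mutant or transgene was involved, and salts and sucrose were given together, so their parts cannot be told apart. The labels name no tissue. Of 15 marker genes of leaf, root, epidermis, guard cell, phloem, xylem and seed, 0 were on a probe naming a single gene, so the tissue was not checked here.

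In the Calvin cycle, carbon dioxide is fixed onto ribulose 1,5-bisphosphate, and phosphoribulokinase uses ATP to make that acceptor from ribulose 5-phosphate in the plastid stroma. The xylulose 5-phosphate translocator sits in the inner plastid envelope and exchanges pentose and triose phosphates for phosphate, which links the cytosolic and plastid branches of the pentose phosphate pathway. Kinases of the pfkB family phosphorylate sugars, sugar phosphates or nucleosides. Isocitrate dehydrogenases turn isocitrate into 2-oxoglutarate, the carbon skeleton for ammonium assimilation, and lactate dehydrogenase reduces pyruvate to lactate and is best known from plants short of oxygen.

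Each sample had 1 deposited intensity per probe on a linear scale from 0 to 100, with a maximum of 100 in each sample. How that scale was made is not stated. Below, without scaling means that the deposited values were not scaled any further. The median of all probes was between 0.171 and 0.188 on the water arrays and between 0.422 and 0.459 on the sucrose arrays, so a gene with a steady deposited value sits lower among the probes of a sucrose array than among those of a water array. Changes below are therefore given after quantile normalisation, that is, against the rest of the same array, and beside them on the deposited scale. Also given is the percentile of a gene among the 2805 probes above 0 in all samples, which no uniform scaling of an array can move. Quantile normalisation goes by rank within the array too, so the percentile is no separate support for the normalised values. Nothing in the labels tells whether the samples of a group were grown apart. The p-values then measure only the spread between these samples, which can be technical. Within a group, samples 1 and 2, 3 and 4, and 5 and 6 had Spearman correlations across probes of 0.957 to 0.986, against 0.915 to 0.959 for other sample pairs. If these sets are repeats, which the labels leave unsaid, the p-values are too small. The number of arrays limits the precision.

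After quantile normalisation AT1G06730 rose, PRK, AT5G17630 and AT5G14590 fell, and AT4G17260 did not pass the test. Among all 2915 probes tested, 64.4% passed (limma, Benjamini-Hochberg adjusted p under 0.05), 31.5% as higher and 32.9% as lower in sucrose medium, so 4 calls among 5 genes do not set these genes apart from the rest of the array. The median log2 fold change of all probes was -0.03. Under the other settings named below the share of probes past the test in either direction was 81.6% without scaling, 69.2% with median centring, 61.5% with cyclic loess, 62.4% with a straight line, 65.3% with 0.05 added so that zeros are kept, 69.4% with replicate number as a block and 46.9% with sets of 2 samples (numbers 1 and 2, 3 and 4, 5 and 6) averaged.

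**Figure D1:**
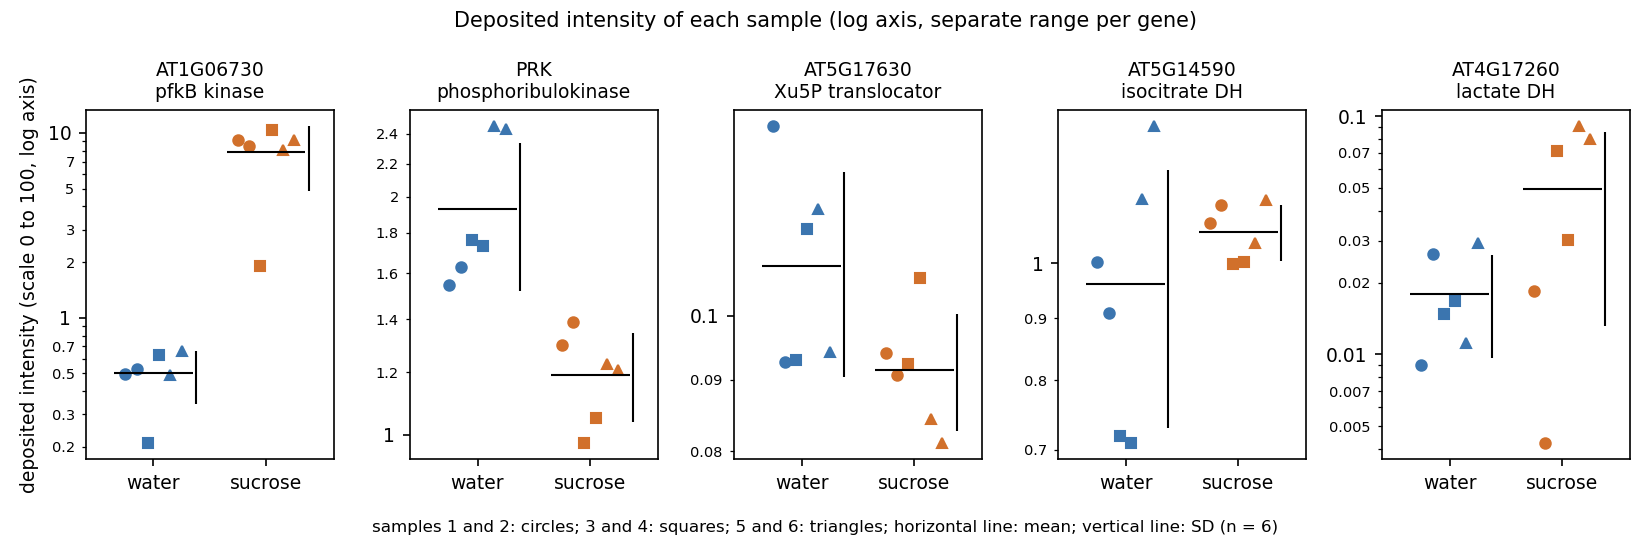
Deposited intensity (log axis, a separate range for each gene) of the 5 genes in 6 water samples (blue) and 6 sucrose samples (orange), with the mean and SD of each group. The groups are apart for AT1G06730 and PRK and overlap for AT5G17630, AT5G14590 and AT4G17260.

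The carbohydrate kinase gene AT1G06730 had the largest change of the 5. Its deposited intensity in water was 0.209 at the lowest, 0.514 at the median and 0.658 at the highest. In sucrose medium the lowest sample had 1.90, the median was 8.84 and the highest was 10.4. Every sucrose sample was above every water sample on both scales. On the deposited scale that held for 64.5% of 2805 probes. After quantile normalisation 44.8% of them had groups without overlap, in either direction. The mean log2 intensity went from -0.63 ± 0.48 to 2.87 ± 0.98 (SD, n = 6 each), a log2 fold change of 3.50 ± 0.41 (SE) or 11.3-fold (limma, adjusted p = 1.07e-05). Only 5 of the 2915 probes tested had a larger increase. With median centring in place of quantile normalisation the log2 fold change was 2.62, and with a straight line fitted between each array and the mean of the water arrays it was 4.20. Within its own array the gene moved from the 48.8th to 80.8th percentile in water to the 92.4th to 98.5th in sucrose medium.

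In AT1G06730 the samples numbered 3 lay apart. Water replicate 3 had a log2 intensity of -1.56 where the other water samples lay between -0.61 and -0.26, and sucrose replicate 3 had 0.88 where the others lay between 3.10 and 3.44. Both samples numbered 3 were thus low, and the samples numbered 4 were the highest of their groups on the normalised scale. Within same-numbered pairs the deposited ratio of sucrose to water was 18.4, 16.1, 9.08, 16.6, 16.5 and 13.9 for numbers 1 to 6. Apart from number 3 the ratios thus lay between 13.9 and 18.4. In a fit with replicate number as a block, the SE of the log2 fold change was 0.19 in place of 0.41. For the other genes the block changed the SE less. It was 0.144 in place of 0.136 for PRK and 0.140 in place of 0.176 for AT5G17630. For AT5G14590 it was 0.092 in place of 0.107, and for AT4G17260 0.54 in place of 0.60.

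PRK, the last enzyme step before carbon fixation, fell. Its deposited intensity in water was 1.54 at the lowest, 1.75 at the median and 2.46 at the highest. In sucrose medium it was 0.975, 1.22 and 1.39. The highest sucrose sample was below the lowest water sample, although most probes moved the other way on this scale. On the deposited scale 64.5% of 2805 probes had all sucrose samples above all water samples, and 4.60% had all of them below, PRK among them. After quantile normalisation the mean log2 intensity was 0.96 ± 0.24 in water and -0.08 ± 0.24 in sucrose medium (SD, n = 6 each), which is 2.07-fold lower (log2 fold change -1.05 with SE 0.14; limma, adjusted p = 2.65e-05). Its size depended on the scaling, at -0.68 without scaling (adjusted p = 0.00056) and -1.94 with median centring (adjusted p = 4.04e-08).

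PRK also differed between sets of 2 samples within a group. In water its mean deposited intensity was 1.59 for samples 1 and 2, 1.75 for samples 3 and 4 and 2.45 for samples 5 and 6. In sucrose medium the same sets of 2 had 1.34, 1.01 and 1.22. The difference within sets was -0.55 for numbers 1 and 2, -1.28 for numbers 3 and 4 and -1.32 for numbers 5 and 6 on the log2 scale, so the sets differed in size and not in direction. The decrease was present in 6 of 6 same-numbered pairs, as it was for 33.9% of the 2805 probes.

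**Figure D2:**
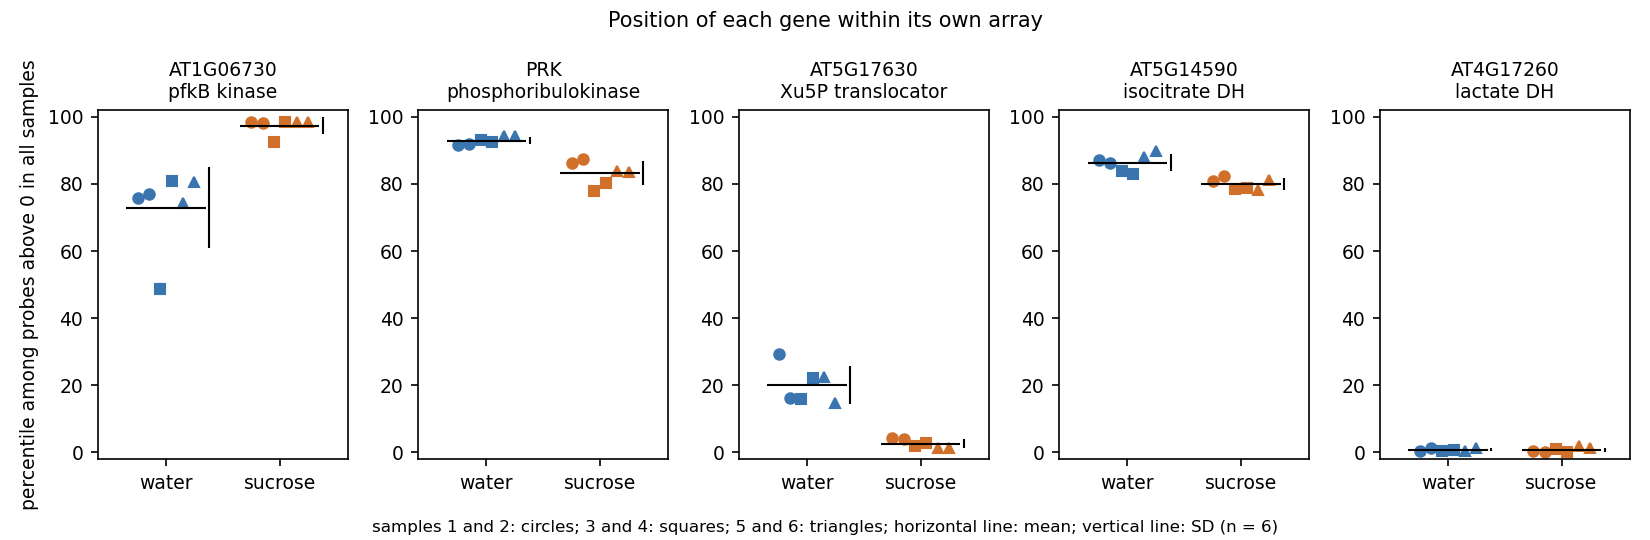
Percentile of each gene among the 2805 probes above 0 in all samples, for 6 water samples (blue) and 6 sucrose samples (orange), with the mean and SD of each group. AT1G06730 is higher and PRK, AT5G17630 and AT5G14590 are lower in every sucrose sample than in any water sample, and AT4G17260 stays at the bottom of both groups.

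AT5G17630, the translocator that carries xylulose 5-phosphate across the plastid envelope, was dim in all samples. Its deposited intensity ran from 0.0926 over a median of 0.105 to 0.137 in water. In sucrose medium it ran from 0.0811 over 0.0916 to 0.106. The groups overlapped on this scale, and the difference did not pass (two-sided exact permutation test, p = 0.0628, n = 6 each). Relative to the other probes it fell, from a log2 intensity of -2.57 ± 0.23 to -4.26 ± 0.39 (SD, n = 6 each), a log2 change of -1.70 with an SE of 0.18 (limma, adjusted p = 4.39e-06). Its percentile lay between 14.6 and 29.4 on water arrays and between 1.28 and 4.28 on sucrose arrays, without overlap. Without scaling its log2 fold change was -0.24 (adjusted p = 0.0708), where the median of all probes was 1.09. Its mean deposited intensity in sucrose medium was 0.843 times that in water, so the call rests on its place among the other probes. Whether the probe was above background in either group cannot be told from these values.

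AT5G14590, the isocitrate dehydrogenase, showed the smallest of the called changes. Its deposited intensity was 0.709 at the lowest, 0.957 at the median and 1.30 at the highest in water. In sucrose medium it was 0.999, 1.06 and 1.13, so the sucrose samples lay inside the range of the water samples. On this scale the difference did not pass (two-sided exact permutation test, p = 0.335, n = 6 each). After quantile normalisation its log2 intensity was 0.14 ± 0.23 in water and -0.30 ± 0.10 in sucrose medium (SD, n = 6 each), a log2 change of -0.45 with an SE of 0.11 (limma, adjusted p = 0.00297). The groups did not overlap, as for 44.8% of probes, but they nearly met. The lowest water sample had -0.13 and the highest sucrose sample -0.15. The call was lost with cyclic loess (-0.27, adjusted p = 0.0748), with the straight line (-0.035, adjusted p = 0.844), with the sets of 2 averaged (adjusted p = 0.0576) or without scaling, where it was above 0 (0.18, adjusted p = 0.267). With median centring it was larger, at -1.08 (adjusted p = 5.81e-06). The water samples differed by set, with mean deposited intensities of 0.957, 0.714 and 1.22 for numbers 1 and 2, 3 and 4, and 5 and 6, and the sucrose samples less so, at 1.10, 1.001 and 1.08.

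AT4G17260, the lactate dehydrogenase, was among the dimmest probes of every array, between the 0.0713th and the 1.78th percentile. Its deposited intensity in water was 0.00906 at the lowest, 0.0157 at the median and 0.0293 at the highest. In sucrose medium it was 0.00424, 0.0508 and 0.0910, a range that encloses that of the water samples. The log2 fold change was -0.90 with a 95% confidence interval from -2.21 to 0.40 (limma, adjusted p = 0.204), so neither a fall of several fold nor a small rise could be told from no change. It was -0.26 with median centring, -0.20 with cyclic loess and -0.44 without sucrose replicate 2, and again not past the threshold. On the deposited scale 5 of 6 pairs were higher in sucrose medium, and after quantile normalisation 4 of 6 pairs were lower. With 0.05 added to each value before log2 it passed as lower (-0.42, adjusted p = 0.00595). That constant is larger than the mean of the gene in water, 0.0179, and close to that in sucrose medium, 0.0492.

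**Figure D3:**
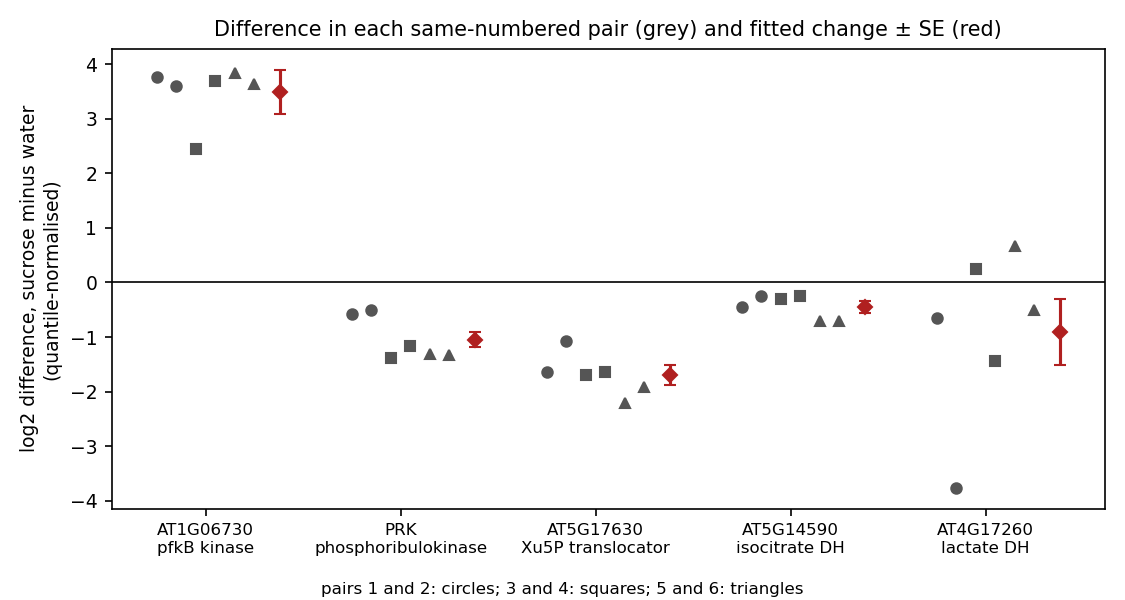
Log2 difference of sucrose minus water after quantile normalisation in each same-numbered pair (grey) and the fitted log2 fold change with its SE (red). All 6 pairs are above 0 for AT1G06730 and below 0 for PRK, AT5G17630 and AT5G14590, and the pairs of AT4G17260 run from -3.77 to 0.68.

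After quantile normalisation the direction was the same in all 6 same-numbered pairs for 4 of the 5 genes, as it was for 64.6% of the 2805 probes. For AT5G17630 the pairs lay between -2.22 and -1.07 on the log2 scale. For AT5G14590 they lay between -0.71 and -0.25, with the pairs numbered 5 and 6 as the lowest. On the deposited scale, in contrast, 4 of the 6 pairs of AT5G14590 were higher in sucrose medium. The groups did not overlap after quantile normalisation for these same 4 genes, which was also the case for 44.8% of the probes. In an exact two-sided permutation test of the 12 normalised values each of the 4 had p = 0.00216, the smallest that 6 against 6 samples can give, and AT4G17260 had p = 0.214.

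**Figure D4:**
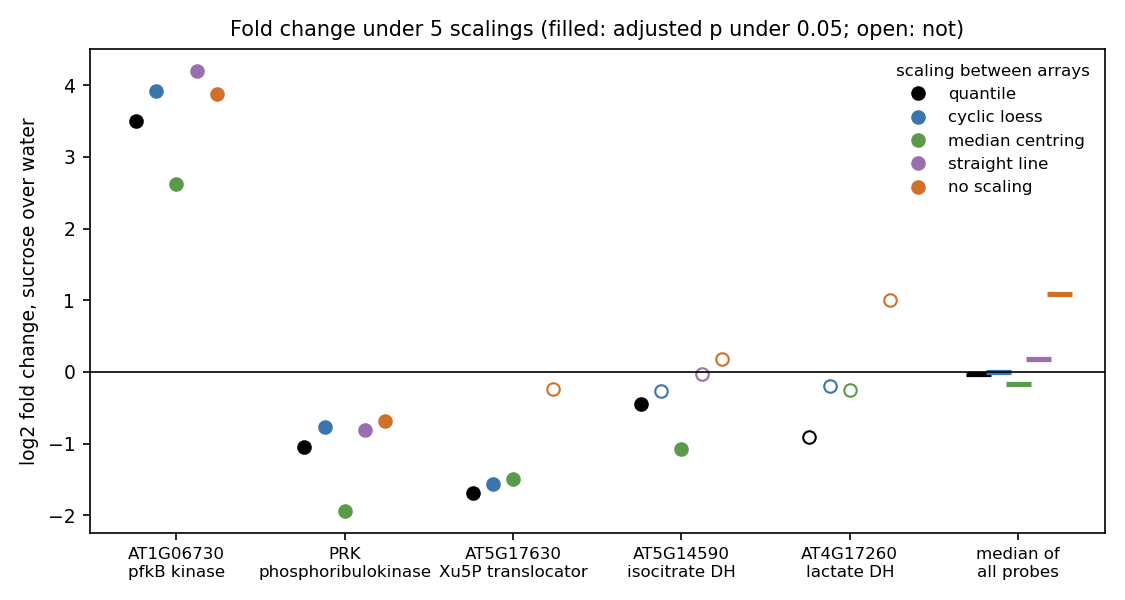
Log2 fold change of sucrose over water for the 5 genes, and its median over all probes tested, under quantile normalisation, cyclic loess, median centring, a straight line to the water mean and no scaling. Filled points passed the test (adjusted p under 0.05). AT1G06730 is above 0 and PRK below 0 under all 5, AT5G14590 and AT4G17260 cross 0 without scaling, and AT5G17630 and AT4G17260 have no straight-line value.

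A ratio of 2 genes within an array is free of any constant factor between arrays, but not of an offset. On water arrays PRK lay between the 91.6th and 94.3rd percentile and AT5G14590 between the 82.9th and 89.7th. On sucrose arrays PRK lay between the 78.0th and 87.5th and AT5G14590 between the 78.2nd and 82.5th. The ratio of their deposited intensities was 1.54, 1.79, 2.45, 2.45, 2.17 and 1.87 in water samples 1 to 6. In sucrose samples 1 to 6 it was 1.20, 1.24, 0.976, 1.05, 1.18 and 1.07. All sucrose samples were below all water samples. The groups did not overlap in 4 of the 10 ratios among the 5 genes, this one included. The others of these 4 all held AT1G06730, the gene with the largest change. The mean log2 ratio was lower by a factor of 1.81 (log2 difference -0.86 ± 0.12, SE; two-sided exact permutation test, p = 0.00216, adjusted over the 10 ratios among the 5 genes 0.00541, n = 6 each). This ratio was tested after the data were seen. After quantile normalisation the log2 difference of the ratio was smaller, at -0.60. That value is the difference between the fitted changes of PRK and AT5G14590 given above, so it is no separate support. On both scales PRK changed unequally to AT5G14590, which does not say which of them changed. The share of ratios between other probes that differ in this way was not computed. The ratio of PRK to AT5G17630 did not pass (exact permutation p = 0.0541, adjusted 0.0773).

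**Figure D5:**
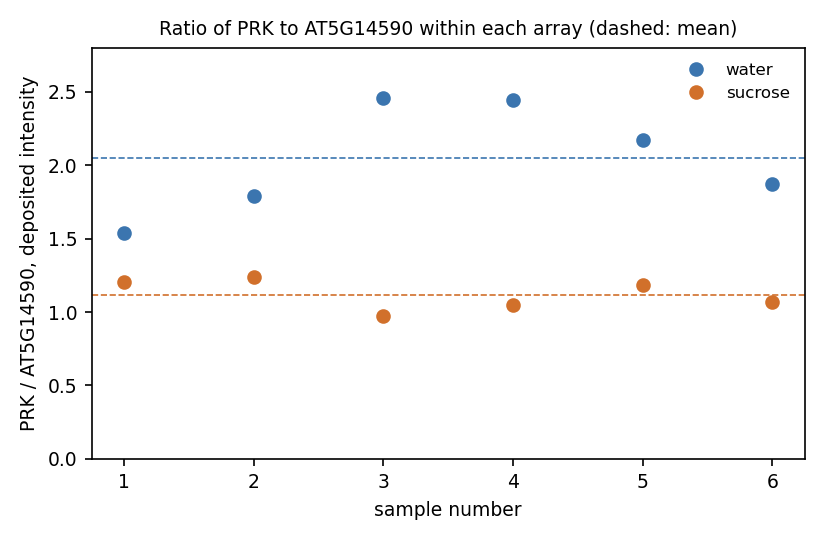
Ratio of the deposited intensities of PRK and AT5G14590 in each array, by sample number, for water (blue) and sucrose medium (orange), with dashed lines at the group means. The water samples lie between 1.54 and 2.45 and the sucrose samples between 0.976 and 1.24.

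Few other genes of these pathways could be read. Of 247 loci in lists of the Calvin cycle, pentose phosphate pathway, plastid sugar transport, pfkB and hexose kinases, glycolysis, pyruvate and TCA cycle, fermentation, and sucrose and starch metabolism, 12 were on a probe naming a single gene and 9 could be tested. These 9 hold the 5 genes above. Of the 9, 2 passed as higher, 4 passed as lower and 3 did not pass, against 64.4% of all probes past the test, 31.5% as higher and 32.9% as lower. Their median log2 fold change, -0.29, is the value of a single gene, AT1G17160, which depends on the scaling. The pentose phosphate list had 0 testable genes of 23. SBPASE (AT3G55800), sedoheptulose bisphosphatase of the Calvin cycle, and AT5G44520 were listed at 0 in all 12 samples, and AT1G12230 was above 0 in 2 of them.

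PPDK (AT4G15530), pyruvate orthophosphate dikinase, which makes phosphoenolpyruvate from pyruvate, rose. Its deposited intensity was 0.206 to 0.323 in water with a median of 0.294, and 0.683 to 0.885 in sucrose medium with a median of 0.760. On that scale 64.5% of 2805 probes had all sucrose samples above all water samples. After quantile normalisation the groups overlapped, and the log2 fold change was 0.35 ± 0.11 (SE; limma, adjusted p = 0.0159). PPDK was higher in 6 of 6 pairs, where 64.6% of probes had the same direction in all pairs. Its call was lost with median centring (0.21, adjusted p = 0.113). AT1G17160, a ribokinase and so another member of the pfkB family, was bright, with medians of 2.05 in water and 1.88 in sucrose medium and overlapping groups. Its log2 fold change was -0.29 ± 0.12 (SE; limma, adjusted p = 0.0478), opposite in sign to that of AT1G06730. This call was lost without any 1 of 7 samples, namely water replicates 3, 4 and 5 and sucrose replicates 1, 4, 5 and 6, with adjusted p up to 0.103, and with averaged sets (adjusted p = 0.205). It was also lost with cyclic loess (-0.11, adjusted p = 0.361), with the straight line (-0.077, adjusted p = 0.584) and without scaling (-0.19, adjusted p = 0.0819). With median centring it was at -1.45 (adjusted p = 1.52e-07).

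The NADP-malate dehydrogenase gene AT5G58330 and the sucrose phosphate synthase gene ATSPS4F (AT4G10120) did not pass. AT5G58330 had a log2 fold change of 0.36 (95% confidence interval -0.26 to 0.99; limma, adjusted p = 0.284) and ATSPS4F -0.09 (-0.35 to 0.18; adjusted p = 0.55). On the deposited scale both were higher in all sucrose samples than in any water sample, with medians of 0.107 and 0.322 for AT5G58330 and 0.807 and 1.08 for ATSPS4F, as was the case for 64.5% of probes. Without water replicate 5 AT5G58330 was at 0.12 (adjusted p = 0.626), and without scaling it passed at 1.72 (adjusted p = 8.22e-05), where the median of all probes was 1.09. ATSPS4F passed as lower with median centring (-0.72, adjusted p = 6.33e-05), and was above 0 without scaling (0.54, adjusted p = 0.000134) and with the straight line (0.41, adjusted p = 0.0143).

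Within the groups the 5 genes did not vary as a block. Over the 12 samples, as deviations from the group means, PRK and AT5G14590 had a Pearson r of 0.58, and AT5G17630 and AT4G17260, the dim pair, had -0.91. The other 8 pairs of genes lay between -0.25 and 0.38. By the same measure, among 563 other probes naming a single gene with a value in all samples, AT1G06730 was most like AT2G37750 (r = 0.86) and APTX (AT5G01310, r = 0.79). PRK was most like AT1G30700 (r = 0.90) and AT4G19430 (r = 0.87), and AT5G14590 like AT5G11010 (r = 0.93) and AT1G24040 (r = 0.87). AT5G17630 was most like AT2G15440 (r = 0.89) and AT2G03390 (r = 0.87), and AT4G17260 like AT3G20680 (r = 0.86) and AT3G04500 (r = 0.85). These probes were picked for the highest r among 563 for each gene, and how high r gets by chance in such a search was not computed. For AT1G06730 the samples numbered 3 lay far from the rest of their groups, at a log2 intensity of -1.56 in water and 0.88 in sucrose medium. The r values of AT1G06730 therefore depend heavily on those samples, and r without them was not computed. All these correlations describe 12 arrays that share sets and scaling, and some differ between groups. For AT5G17630 and AT2G03390 r was 0.32 over the 6 water samples and 0.99 over the 6 sucrose samples, and for AT5G14590 and AT1G24040 it was 0.98 and 0.45. The genes most like AT1G06730 moved the other way between groups, with log2 fold changes of -0.75 for AT2G37750 and -1.50 for APTX (limma, adjusted p = 0.00169 and 8.07e-06).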

How the data were processed

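Per the labels, total RNA of 6 water and 6 sucrose samples was measured on arrays. The authors deposited a linear intensity for each of 3439 probes in each sample, with a maximum of 100 in each sample. Background correction, scaling and labelling are not given in the sources used here. Groups and replicate numbers came from the titles.

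Intensities were put on the log2 scale with values of 0 as missing and quantile normalised. A probe was tested where both groups had 4 or more samples above 0, which held for 2915. The test was a two-sided moderated linear model without a block (limma 3.58.1, R 4.3.3), with Benjamini-Hochberg adjustment over these probes. The fit was also run on simulated arrays with known changes, both groups drawn from the means and SDs of the water samples. Those arrays held no shift between the groups as a whole, so they do not test the normalisation of the real arrays. Plots used matplotlib 3.10.9 (Python 3.11.15).

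Probes were named through the platform annotation, updated to TAIR10.1 by gene identifier. Of the probes 692 name a single gene, of which 690 matched a locus, 870 name several and 1877 are not listed. The table states no genome build and no sequences were used, so no coordinates are given.

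The 5 genes, the pathway lists and the tests were chosen with earlier results of these data known. Named genes are the 5, all testable list members, and for each of the 5 the 2 probes with the highest correlation of deviations from group means.

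The replicate numbers were taken to pair the samples from the data alone. Deviations of same-numbered samples correlated at 0.28 to 0.45 in all 6 pairs (2805 probes), those of the same set of 2 (1 and 2, 3 and 4, 5 and 6) but other number at 0.162 to 0.282, and those of other sets at -0.29 to 0.045. Alternatives were other scalings, zeros kept, other filters, the number or set as a block, averaged sets, single samples left out, and exact permutation.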

Additional observations from a re-analysis of the deposited data

Results flagged for a closer look

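In AT1G06730 a single sample lay far from the other 5 of its group in both groups. Water replicate 3 had a log2 intensity of -1.56, with a gap to the nearest sample of 0.73 of the group's range, and sucrose replicate 3 had 0.88, with a gap of 0.869, both above the Dixon critical value for 6 samples. Without sucrose replicate 3 the log2 fold change was 3.95, without water replicate 3 it was 3.26, and without both, an alternative chosen after seeing the data, it was 3.71 (limma, adjusted p = 1.22e-08). In AT5G58330 water replicate 5 lay at -3.99, below the other water samples at -2.91 to -2.29 (gap 0.639 of the range). These are 3 flags among 18 groups of 6 samples examined, where chance flags about 1 in 20 groups.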

How the results depend on the processing

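AT1G06730 and PRK kept their direction and their call under every alternative run. Without 1 sample at a time the log2 fold changes ranged from 3.26 to 3.95 for AT1G06730, -1.14 to -0.96 for PRK, -1.77 to -1.63 for AT5G17630, -0.49 to -0.37 for AT5G14590 and -1.20 to -0.44 for AT4G17260, with no call gained or lost. Without scaling AT5G17630 was at -0.24 and no longer past the threshold, and AT5G14590 and AT4G17260 were above 0, at 0.18 and 1.0. AT5G14590 was also not past the threshold at -0.27 with cyclic loess, -0.035 with the straight line and -0.45 with averaged sets, and AT4G17260 passed at -0.42 with zeros kept. ATSPS4F was above 0 at 0.54 without scaling, 0.079 with cyclic loess and 0.41 with the straight line. Of all probes 1878 passed, and 1171 of 1876 testable ones with the straight line, where 1039 fewer could be tested. The straight line subtracts a fitted offset from each array, and results at or below 0 were treated as missing. AT5G17630 and AT4G17260 then had too few values left to be tested. Of the probes past the threshold 48.9% were higher, against 90.5% without scaling, 64.4% with the straight line and 40.0% with median centring. The replicate block left 2024 probes past the threshold and changed no call of the 5 genes, at adjusted p = 8.55e-06 for AT1G06730, 0.000472 for PRK, 4.38e-05 for AT5G17630, 0.0035 for AT5G14590 and 0.168 for AT4G17260. The log2 ratio of PRK to AT5G14590, tested after the data were seen, differed by -0.93 to -0.80 without 1 sample at a time. The causes of these shifts were not tested. Whether AT5G17630 or AT4G17260 was above background cannot be read from the table.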
